A study of Homo sapiens with 13 samples.

Results

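The 9 genes PDHA1, PC, CS, IDH3A, OGDH, SUCLG1, SUCLA2, FH and MDH2 encode enzymes of the tricarboxylic acid (TCA) cycle and of the entry of pyruvate into it. They were chosen by name, with earlier results of these data known. Every probe of the array design that carries one of these names and is not a control was taken, whatever its measured values. This gave 10 of the 34127 probes, 2 for PDHA1 and 1 for each of the other 8 genes. The cells were CCRF-CEM, an established human T cell acute lymphoblastic leukemia line, either parental (CEM PA) or as a population made resistant by culture in rising concentrations of FK866 (CEM RES). FK866 inhibits NAMPT, the enzyme that recycles nicotinamide into NAD+. The labels describe the resistant population as withstanding 100 nM FK866, and the study's methods state that it was kept in the drug, so no CEM RES group had never met FK866. CEM PA mock (3 arrays) and CEM RES mock (4 arrays) had received the solvent DMSO, and CEM PA FK866 (2 arrays) and CEM RES FK866 (4 arrays) had received 5 nM FK866, each for 48 h. The labels call the arrays of a group biological replicates, and total RNA was hybridized in 1 colour to Agilent human arrays.

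Pyruvate made by glycolysis enters the mitochondrial cycle by 2 routes. The pyruvate dehydrogenase complex turns it into acetyl-CoA, and pyruvate carboxylase turns it into oxaloacetate, which refills the cycle when intermediates are drawn off. Several steps hand electrons to NAD+ (those of pyruvate dehydrogenase, NAD-dependent isocitrate dehydrogenase, 2-oxoglutarate dehydrogenase and malate dehydrogenase), and the resulting NADH feeds the respiratory chain. Leukemia cells in culture also send much of their pyruvate to lactate through lactate dehydrogenase.

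The probes are oligonucleotides of 60 bases, and 3 of them are shown as examples of what the array reads. They were picked for their position in the interior of the listed transcript (bases 879 to 938) and for having at least 1 forward reading frame without a stop codon. All letters are lower case because no stretch within a probe is singled out.
OGDH (A_24_P290770, hg19 chr7:44713532-44714060, plus strand): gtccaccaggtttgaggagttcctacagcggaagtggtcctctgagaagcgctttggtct
SUCLG1 (A_23_P79545, hg19 chr2:84658711-84658770, minus strand): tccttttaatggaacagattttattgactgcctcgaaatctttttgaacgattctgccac
MDH2 (A_23_P31372, hg19 chr7:75694196-75694255, plus strand): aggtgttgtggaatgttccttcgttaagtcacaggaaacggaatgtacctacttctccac
The OGDH coordinates span 529 bases for 60 bases of probe, so this oligo lies across an intron, and the transcript it is named for, NM_001003941, is 1 of several OGDH transcripts. The other probes are contiguous in the genome, and their positions in their listed transcripts run from base 669 for the second PDHA1 probe to base 4031 for PC. The main PDHA1 probe, A_23_P251095 (chrX:19377888-19377947), is listed for 4 RefSeq transcripts. The second, A_33_P3229898 (chrX:19371381-19371440), is named for an Ensembl transcript and listed for no RefSeq transcript. Whether it reads PDHA1 mRNA was not tested. Of the other probes, 4 lie at chr11:66616098-66616157 (PC), chr12:56665498-56665557 (CS), chr15:78462425-78462484 (IDH3A) and chr13:48517388-48517447 (SUCLA2), all on hg19. Exon and UTR borders on hg19 were not analysed here.

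The values below are log2 signals, that is the background-corrected intensity of a probe on the log2 scale after quantile normalization over the 13 arrays. All 10 probes were well above background on every array, and all passed the filter that kept 22754 of the 34127 probes. Between 26457 and 33239 of the 43118 spots per array were well above background and 0 were saturated. Of the T-lineage marker genes, 9 of 9 (CD3D, CD3E, CD3G, CD7, CD2, CD5, LCK, CD1A and CD28) were well above background on all 13 arrays, while EPCAM was so on 0 arrays and MPO and CD33 on 1 each. CD79A, CD79B, CD14, KRT8 and KRT18, markers of other lineages, were also above background on all 13 arrays. CD79B lay at 6.38 to 7.11 in CEM PA and at 5.28 to 5.91 in CEM RES, and CD79A at 11.69 to 11.82 and at 10.76 to 11.77. Their part in the results was not tested. CEM PA arrays were scanned in sessions 1 and 2 and CEM RES arrays all in session 3, so scan session and cell line cannot be told apart in any comparison of the lines. In bulk RNA, fewer cells of a kind and less of a transcript per cell cannot be told apart either.

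Most of the members were higher in mock-treated CEM RES than in mock-treated CEM PA. IDH3A and MDH2 had the largest differences, 2.91-fold and 2.01-fold, SUCLG1, PC, SUCLA2, PDHA1 and FH were 1.30 to 1.65 times as high, and CS was lower. In limma's moderated test 8 of the 10 probes passed a Benjamini-Hochberg adjusted p of 0.05, 7 higher and 1 lower. This stands against 47.6% of all 22754 tested probes in either direction, 24.9% higher and 22.7% lower. The arrays of the lines did not overlap for 8 probes, 6 higher and 2 lower, against 48.8% of all probes, 25.6% higher and 23.2% lower. The median log2 fold change of the 10 probes was 0.44, and that of all probes 0.04. With the limits the study's methods name, an absolute log2 fold change over 0.75 and an unadjusted p under 0.05, IDH3A and MDH2 passed, 2 of 10 probes, against 35.6% of all.

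**Figure D1:**
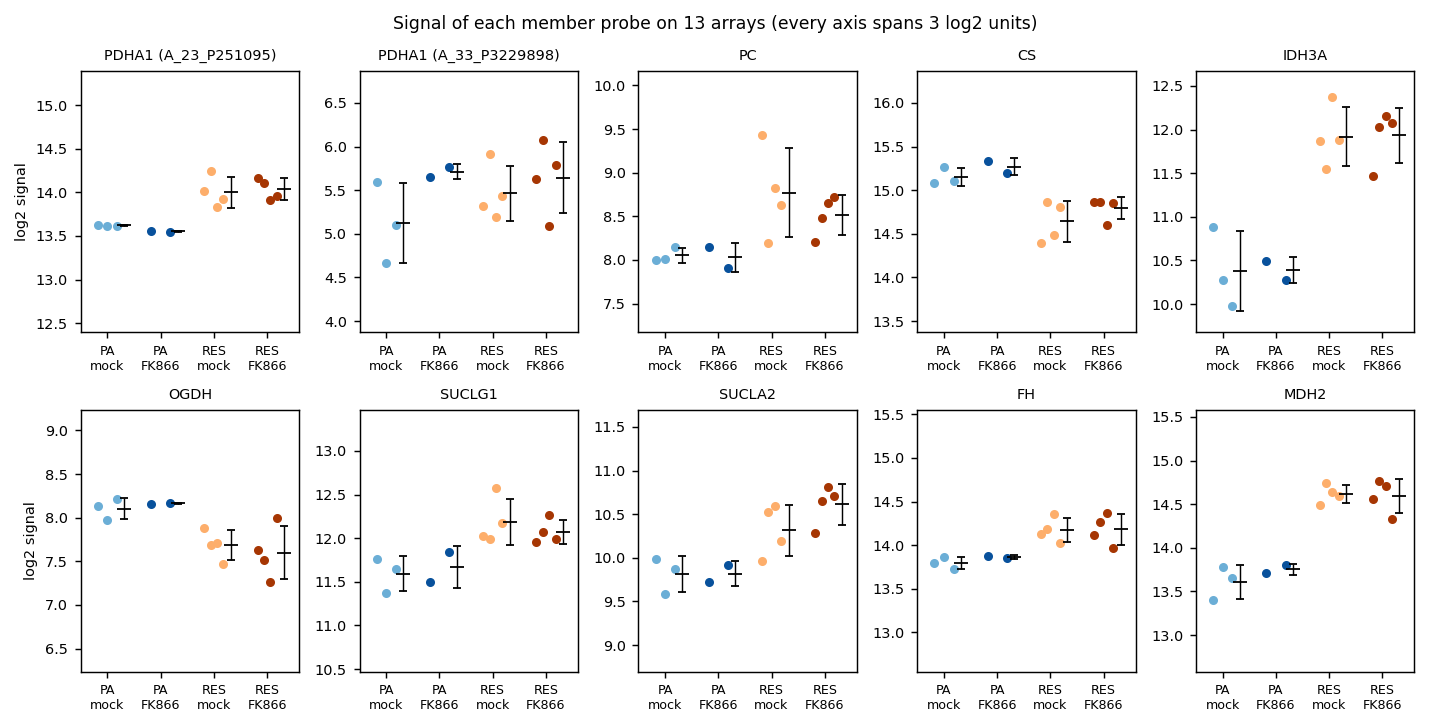
Log2 signal of each of the 10 probes (vertical axis, spanning 3 log2 units in every panel) on the 13 arrays, by group along the horizontal axis. Points are arrays and black bars the group mean with its SD, and IDH3A and MDH2 show every CEM RES array above every CEM PA array, while CS shows the reverse.

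PDHA1 encodes the catalytic alpha subunit of pyruvate dehydrogenase. Its main probe read 13.63, 13.62 and 13.62 on the CEM PA mock arrays and 14.02, 14.24, 13.83 and 13.92 on the CEM RES mock arrays. All 4 resistant arrays lay above the parental ones, which hardly differed among themselves. The log2 fold change was 0.38 (SE, the standard error, 0.13, limma adjusted p = 0.0326). The second PDHA1 probe was dim, at 5.59, 4.67 and 5.10 in CEM PA mock and 5.32, 5.91, 5.19 and 5.43 in CEM RES mock. Here the groups overlapped, and the log2 fold change of 0.34 (SE 0.27) did not pass (limma adjusted p = 0.318). With 75th percentile scaling this probe gave 0.68 and passed (limma adjusted p = 0.00692), its adjusted p ranging from 0.00692 to 0.774 over all alternatives.

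PC, pyruvate carboxylase, read 8.0, 8.01 and 8.15 on the CEM PA mock arrays and 9.43, 8.20, 8.83 and 8.63 on the CEM RES mock arrays. The resistant arrays were all higher but spread over more than a log2 unit, CEM RES mock replicate 1 standing highest. The log2 fold change was 0.72 (SE 0.24, limma adjusted p = 0.0268), or 1.65-fold. Without CEM RES mock replicate 1 it was 0.50 (limma adjusted p = 0.0513), and with replicate number as a block it was 0.72 (limma adjusted p = 0.0640).

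CS, citrate synthase, joins acetyl-CoA and oxaloacetate in the first step of the cycle. It read 15.08, 15.27 and 15.10 in CEM PA mock and 14.40, 14.87, 14.49 and 14.81 in CEM RES mock. All resistant arrays lay below all parental ones. CS fell by 0.51 on the log2 scale (SE 0.15, limma adjusted p = 0.0147), opposite to most other members. With 75th percentile scaling, which shifted the all-probe median from 0.04 to 0.17, it was -0.35 and did not pass (limma adjusted p = 0.0786).

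IDH3A encodes the catalytic subunit of the NAD-dependent isocitrate dehydrogenase. It read 10.88, 10.27 and 9.98 in CEM PA mock and 11.87, 11.55, 12.37 and 11.88 in CEM RES mock. The lowest resistant array was above the highest parental array, although each group spread widely. The log2 fold change was 1.54 (SE 0.25, limma adjusted p = 0.000416). The highest parental value came from the only mock array of scan session 1, and with treatment in the model IDH3A was -0.53 in session 2 relative to session 1 of CEM PA (unadjusted p = 0.0513, limma adjusted p = 0.284). That was the largest such difference among the 10 probes, the others lying between -0.35 and 0.22.

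OGDH encodes the first component of the 2-oxoglutarate dehydrogenase complex. Its probe read 8.13, 7.97 and 8.21 in CEM PA mock and 7.88, 7.69, 7.71 and 7.47 in CEM RES mock. The groups did not overlap, yet the log2 fold change of -0.42 (SE 0.17) did not pass (limma adjusted p = 0.0648). It passed with the deposited log2 values (-0.52, limma adjusted p = 0.0315), with normexp background correction (-0.37, limma adjusted p = 0.0230) and with array quality weights (-0.46, limma adjusted p = 0.0367), its adjusted p ranging from 0.0230 to 0.167 over all alternatives.

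SUCLG1 and SUCLA2 encode the alpha subunit and the ATP-forming beta subunit of succinyl-CoA ligase, which makes succinate. SUCLG1 read 11.76, 11.37 and 11.65 in CEM PA mock and 12.03, 11.99, 12.57 and 12.17 in CEM RES mock, with no overlap. Its log2 fold change was 0.60 (SE 0.17, limma adjusted p = 0.0141). SUCLA2 read 9.99, 9.58 and 9.87 in CEM PA mock and 9.96, 10.52, 10.59 and 10.19 in CEM RES mock. Here CEM RES mock replicate 1 fell below CEM PA mock replicate 1, and the log2 fold change of 0.50 (SE 0.19, limma adjusted p = 0.0468) lay just inside the threshold. SUCLA2 is the only member printed as 10 spots per array, and the SD between its spots was 0.02 to 0.08 within an array against 0.14 to 0.29 between the arrays of a group.

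FH, fumarase, read 13.80, 13.87 and 13.73 in CEM PA mock and 14.13, 14.18, 14.36 and 14.02 in CEM RES mock. The groups did not overlap, and the log2 fold change was 0.37 (SE 0.14, limma adjusted p = 0.0415). MDH2, the mitochondrial malate dehydrogenase that regenerates oxaloacetate, read 13.40, 13.78 and 13.65 in CEM PA mock and 14.49, 14.74, 14.64 and 14.59 in CEM RES mock. A gap of more than the spread of either group separated the lines. The log2 fold change was 1.01 (SE 0.15, limma adjusted p = 0.000197).

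The calls differed in how far they rested on single arrays. IDH3A and MDH2 passed in all 27 alternatives, with log2 fold changes from 1.34 to 1.80 and from 0.90 to 1.09 and adjusted p up to 0.00296 and 0.00226. No alternative could separate scan session from line. SUCLG1 and CS were lost when CEM PA mock replicate 2 was left out (limma adjusted p = 0.0663 and 0.0587). PDHA1 (main probe) was lost in 10 of 27 alternatives. Among them were the mean of its 2 probes (0.36, limma adjusted p = 0.123) and the deposited log2 values (0.31, limma adjusted p = 0.0804). It was also lost without any 1 of the 3 CEM PA mock replicates or without CEM RES mock replicate 1 or 2 (0.0534 to 0.0816). PC was lost too without CEM PA mock replicate 1 or 2 or CEM RES mock replicate 3 (0.0534 to 0.0701). SUCLA2 was lost in 16 and FH in 15 of 27 alternatives, with adjusted p up to 0.171 and 0.109. Among these were each CEM PA FK866 replicate for both genes, CEM PA mock replicates 2 and 3, CEM RES FK866 replicates 2 to 4 and CEM RES mock replicates 2 to 4 for SUCLA2, and each CEM PA mock replicate, CEM RES FK866 replicates 1 and 2 and CEM RES mock replicates 1 to 3 for FH. OGDH, in turn, passed without CEM RES FK866 replicate 3 or 4 or CEM RES mock replicate 1 (0.0370 to 0.0487). Of the 10 probes, 2 passed without CEM PA mock replicate 2, and 5 passed without CEM PA mock replicate 1 or 3 or CEM RES mock replicate 2 or 3.

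With FK866 in the medium of both lines, the same question was put to CEM RES FK866 (4 arrays) and CEM PA FK866 (2 arrays). IDH3A, MDH2, SUCLA2 and PDHA1 (main probe) were higher in CEM RES, and CS and OGDH were lower. These 6 of the 10 probes, 4 higher and 2 lower, passed an adjusted p of 0.05 in limma, against 36% of all probes, 18% in each direction. The arrays did not overlap for 9 probes, 7 higher and 2 lower, against 57.8% of all, 30.1% higher and 27.7% lower. IDH3A read 10.49 and 10.28 in CEM PA FK866 and 11.47, 12.03, 12.16 and 12.08 in CEM RES FK866, a log2 fold change of 1.55 (SE 0.29, limma adjusted p = 0.00151). MDH2 read 13.71 and 13.80 against 14.56, 14.76, 14.71 and 14.33, a log2 fold change of 0.84 (SE 0.17, limma adjusted p = 0.00246). Both genes thus stood apart between the lines under either treatment. SUCLA2 read 9.72 and 9.92 against 10.28, 10.65, 10.81 and 10.71, which gave 0.79 (SE 0.22, limma adjusted p = 0.0136), here without overlap. The main PDHA1 probe read 13.56 and 13.55 against 14.17, 14.11, 13.91 and 13.96, again without overlap, and gave 0.48 (SE 0.15, limma adjusted p = 0.0262).

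CS read 15.34 and 15.20 in CEM PA FK866 and 14.87, 14.86, 14.60 and 14.85 in CEM RES FK866, a fall by 0.48 (SE 0.17, limma adjusted p = 0.0454). OGDH read 8.16 and 8.17 against 7.63, 7.51, 7.26 and 8.0, a fall by 0.57 (SE 0.20, limma adjusted p = 0.0402). For both, every resistant array was below the parental arrays, CEM RES FK866 replicate 4 only by a little for OGDH. With replicate number as a block neither passed (CS -0.47, limma adjusted p = 0.0547, and OGDH -0.60, limma adjusted p = 0.0571). PC read 8.15 and 7.91 in CEM PA FK866 and 8.21, 8.48, 8.65 and 8.72 in CEM RES FK866. SUCLG1 read 11.50 and 11.84 against 11.96, 12.07, 12.27 and 11.99. FH read 13.88 and 13.85 against 14.12, 14.27, 14.37 and 13.97. For these 3 genes every resistant array was above the parental ones, but PC (0.49), SUCLG1 (0.41) and FH (0.32) did not pass (limma adjusted p = 0.183, 0.129 and 0.135), and the second PDHA1 probe gave -0.07 with overlapping groups. Of the 10 probes, 2 passed without CEM PA FK866 replicate 1, and 3 passed without CEM PA FK866 replicate 2 or without CEM RES FK866 replicate 1 or 2. PDHA1 was lost without any 1 of these 4 arrays (limma adjusted p = 0.0558 to 0.129), SUCLA2 without CEM PA FK866 replicate 1 (0.119), OGDH without either CEM PA FK866 replicate or CEM RES FK866 replicates 1 to 3 (0.0608 to 0.160), and CS without any 1 of the 6 FK866 arrays, CEM PA mock replicate 2 or 3 or CEM RES mock replicate 4 (0.0526 to 0.247). With the mean of its 2 probes PDHA1 gave 0.21 and did not pass (limma adjusted p = 0.463). IDH3A and MDH2 passed in all 27 alternatives here too, with adjusted p up to 0.0214 and 0.0341.

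**Figure D2:**
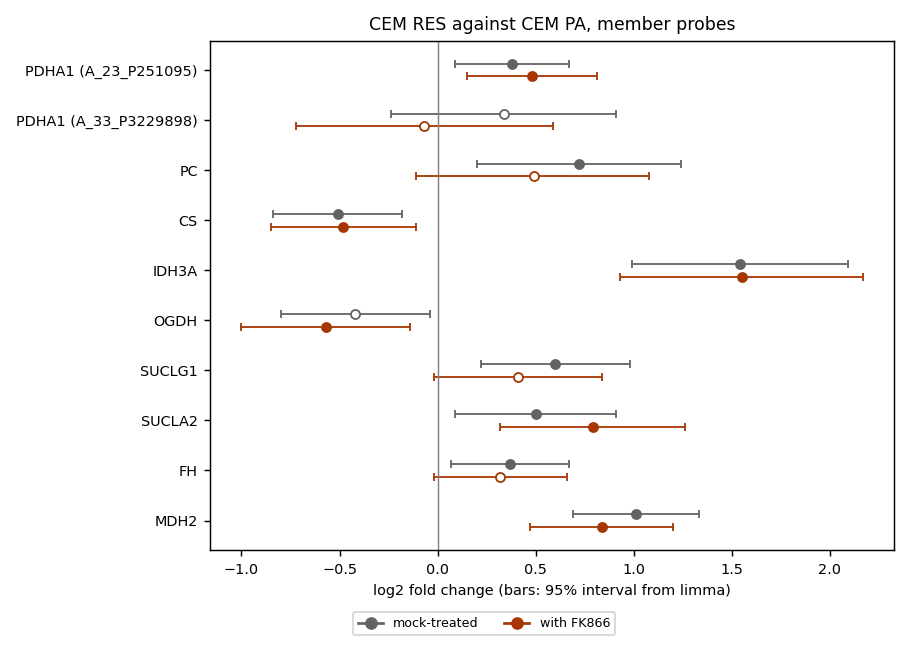
Log2 fold change of CEM RES against CEM PA (horizontal axis) for each probe, grey for mock-treated and brown for FK866-treated cells, with 95% intervals from limma. Filled points passed an adjusted p of 0.05, as IDH3A, MDH2, SUCLA2, CS and the main PDHA1 probe did under both treatments.

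The response to 5 nM FK866 was measured within each line, where every scan session held both treatments. In CEM PA, limma called 0 of the 10 probes at an adjusted p of 0.05, with 0 at an unadjusted p under 0.05, against 1.53% and 14.4% of all probes. Log2 fold changes ran from -0.07 for the main PDHA1 probe to 0.59 for the second. IDH3A, which differed most between the lines, changed by 0.01 (95% interval -0.65 to 0.66), and MDH2 by 0.14 (-0.24 to 0.53). The groups did not overlap for 2 probes, both of PDHA1, against 34.8% of all probes. The main probe read 13.56 and 13.55 with FK866, just below its mock values of 13.62 to 13.63, a change of -0.07 (95% interval -0.42 to 0.28). The second probe read 5.65 and 5.77 with FK866 against 4.67 to 5.59 in mock cells (unadjusted p = 0.0874), and within scan sessions it differed by 0.06 in session 1 and by 0.88 in session 2. Within sessions the changes of PC, IDH3A, SUCLG1 and SUCLA2 had opposite signs, as for IDH3A with -0.39 in session 1 and 0.16 in session 2.

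In CEM RES, limma likewise called 0 of the 10 probes, with 0 at an unadjusted p under 0.05, against 0% and 5.15% of all probes. The changes lay between -0.26 for PC and 0.30 for SUCLA2, and FK866 and mock arrays overlapped for every probe, against 2.91% of all probes without overlap. SUCLA2 (95% interval -0.09 to 0.68) differed by 0.15 among the arrays of slide 5 and by 0.44 among those of slide 6, 2 mock and 2 FK866 arrays each. IDH3A changed by 0.02 (-0.49 to 0.52), from -0.31 on slide 5 to 0.34 on slide 6, and MDH2 by -0.03 (-0.33 to 0.27). The difference between the responses, CEM RES minus CEM PA, was tested as an interaction, and limma called 0 probes, with 0 at an unadjusted p under 0.05, against 0.413% and 12.1% of all probes. The differences ran from -0.40 (95% interval -1.28 to 0.47, second PDHA1 probe) to 0.29 (-0.33 to 0.92, SUCLA2). The counts of 0 at an adjusted p of 0.05 held under every alternative, and those at an unadjusted p were not counted there. The second PDHA1 probe came nearest in CEM PA, at 0.79 with array quality weights (limma adjusted p = 0.106), its adjusted p ranging from 0.106 to 0.799 over the alternatives.

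**Figure D3:**
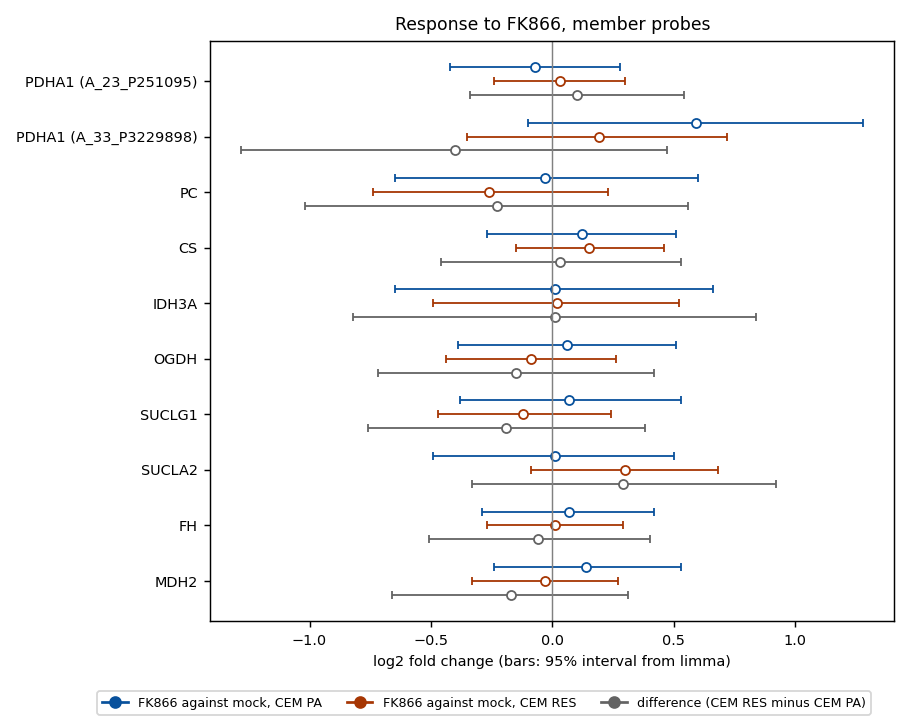
Log2 fold change of FK866 against mock (horizontal axis) in CEM PA (blue) and CEM RES (brown) and the difference between both responses (grey) for each probe, with 95% intervals from limma. All points are open because none passed an adjusted p of 0.05, and every interval includes 0.

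Promoter sequence was looked at because 7 of the members differed in the same direction between the lines. The table of promoters from RefSeq (GRCh38.p14) held 10 for 8 of the 9 members, 3 of them for PC, and OGDH had no entry. Shown are the 250 bases before the start for IDH3A and MDH2, which differed most, and for CS, which went the other way.
IDH3A (GRCh38.p14 chr15:78149112-78149361, plus strand): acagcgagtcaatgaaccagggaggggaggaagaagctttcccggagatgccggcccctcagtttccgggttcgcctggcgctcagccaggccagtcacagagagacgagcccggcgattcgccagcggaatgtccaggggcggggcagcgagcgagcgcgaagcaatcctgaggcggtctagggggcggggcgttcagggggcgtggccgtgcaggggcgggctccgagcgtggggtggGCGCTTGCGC
MDH2 (GRCh38.p14 chr7:76047856-76048105, plus strand): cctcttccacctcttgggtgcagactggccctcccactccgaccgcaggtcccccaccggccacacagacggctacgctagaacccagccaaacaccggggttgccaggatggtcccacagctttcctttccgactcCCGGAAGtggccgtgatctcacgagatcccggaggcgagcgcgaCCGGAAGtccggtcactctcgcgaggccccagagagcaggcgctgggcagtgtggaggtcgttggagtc
CS (GRCh38.p14 chr12:56300331-56300580, minus strand): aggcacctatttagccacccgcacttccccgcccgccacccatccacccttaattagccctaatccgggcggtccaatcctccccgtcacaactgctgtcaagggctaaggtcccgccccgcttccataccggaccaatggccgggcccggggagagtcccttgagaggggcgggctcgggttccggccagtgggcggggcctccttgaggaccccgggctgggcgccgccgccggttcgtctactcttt
Capitals mark matches, on either strand, to the NRF1 motif or to the core of ETS factors such as GABPA (CCGGAAG), regulators known from promoters of mitochondrial genes. The NRF1 match of IDH3A began at position -10 from the start, and 5.07% of the 35116 promoters of this length held such a match, SUCLA2 being the only other member. MDH2 held 2 ETS matches, at positions -113 and -69. Its promoter was the only 1 of the 10 member promoters with a match, against 8.52% of all promoters. AAGGTCA, the ERR motif, was matched in SUCLA2 alone (3.44% of promoters), and AAGATGGC (YY1, 1.36%) and CACGTG (E-box, 6.34%) were matched in 0 of the 10. GGGCGG, the GC box, was matched in 7 of the 10 member promoters, against 42.6% of all promoters. These belonged to PDHA1, PC, CS, IDH3A, SUCLA2 and FH, with PC counted by more than 1 promoter. G and C made up 50.4% to 71.6% of the member promoters, against a median of 58.0% over all promoters. Whether the shares with a GC box differ was not tested. No match to these motifs overlapped in IDH3A, MDH2 or CS, and the matches are descriptions of sequence only.

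The members were set among 55 genes of pyruvate entry and the cycle, grouped by step, each read by its brightest kept probe. All 55 had a probe and 51 a kept one (PDHA2, PCK1, ME1 and ME3 had none). In mock-treated CEM RES against CEM PA, 20 of the 51 were higher, 8 lower and 23 did not pass an adjusted p of 0.05 in limma. Without the members the counts were 13 higher, 7 lower and 22 not called of 42, against the 24.9% and 22.7% of all probes given above. The count of 28 called genes was 18 without CEM PA mock replicate 2. With FK866 in both lines, 11 were higher, 5 lower and 35 did not pass, against 18% of all probes in each direction and 36% in either. The 16 called genes became 8 without either CEM PA FK866 replicate and 10 without CEM RES FK866 replicate 2.

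**Figure D4:**
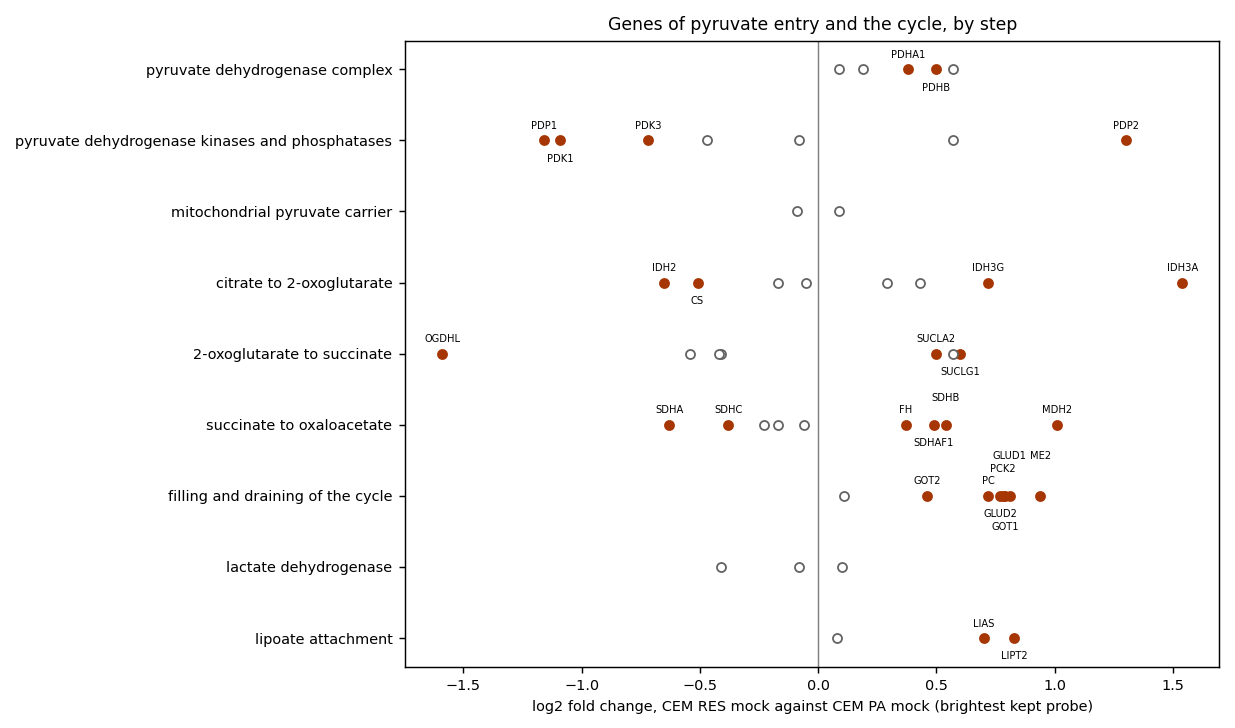
Log2 fold change of mock-treated CEM RES against CEM PA (horizontal axis) for the brightest kept probe of each of 51 genes, by step of the pathway. Filled points with a name passed an adjusted p of 0.05 in limma, open points did not, and the step that fills and drains the cycle has 7 filled points, all above 0.

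Among the regulators of pyruvate dehydrogenase the differences went both ways. PDP1, a phosphatase that activates the complex, fell by 1.16 (SE 0.16, limma adjusted p = 0.000136), whereas PDP2, the other phosphatase, rose by 1.30 (SE 0.25, limma adjusted p = 0.00133). PDK1 and PDK3, kinases that inactivate it, fell by 1.09 and 0.72 (limma adjusted p = 0.0128 and 0.00617). With FK866 in both lines PDP1 was again lower (-1.06, limma adjusted p = 0.000993), but PDP2 (0.69), PDK1 (-0.44) and PDK3 (0.10) did not pass (limma adjusted p = 0.0819, 0.360 and 0.740). Of the complex itself, PDHB, the beta partner of PDHA1, rose by 0.50 between the mock-treated lines (limma adjusted p = 0.0286) and was at 0.07 with FK866 in both (limma adjusted p = 0.799), and DLAT, DLD and PDHX did not pass. The pyruvate carrier genes MPC1 and MPC2 did not pass, with log2 fold changes of -0.09 and 0.09, but a second, dimmer MPC1 probe gave 0.57 (limma adjusted p = 0.0108). Lactate dehydrogenase, the exit towards lactate, had 0 of 3 genes called, LDHA at -0.41 (unadjusted p = 0.0307, limma adjusted p = 0.0615) and LDHB at 0.10. A second, dimmer LDHA probe gave -0.38 (limma adjusted p = 0.380). With FK866 in both lines the brighter LDHA probe was at 0.09 and the dimmer at 0.34 (limma adjusted p = 0.746 and 0.518).

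Along the cycle, IDH3G, a regulatory partner of IDH3A, rose by 0.72 (limma adjusted p = 0.00439), and IDH2, the mitochondrial NADP-dependent enzyme for the same substrate, fell by 0.65 (limma adjusted p = 0.0331). OGDHL, a paralog of OGDH, fell by 1.59 (SE 0.20, limma adjusted p = 6.79e-05), the largest difference of the 51 genes. Succinate dehydrogenase was split, with SDHB (0.54) and the assembly factor SDHAF1 (0.49) higher and SDHA (-0.63) and SDHC (-0.38) lower (limma adjusted p = 0.0179, 0.00502, 0.00973 and 0.0326). The 4 SDHA probes were all lower, from -1.27 to -0.18, but the 3 SDHC probes ran from -1.45 to 0.70. Of the genes that fill and drain the cycle, 7 of 8 were higher and 0 lower between the mock-treated lines, against 24.9% and 22.7% of all probes, led by the malic enzyme ME2 (0.94), glutamate dehydrogenase GLUD1 (0.81) and aspartate aminotransferase GOT1 (0.79), with limma adjusted p = 0.00156, 0.00228 and 0.00122. The others were PCK2, GLUD2, PC and GOT2, and GLUD1 and GLUD2 are near-identical copies whose signals may not be separate. With FK866 in both lines 2 of these 8 genes were higher and 0 lower, against 18% of all probes in each direction. These were ME2 (1.19) and GLUD1 (0.71), with limma adjusted p = 0.00127 and 0.0143, while GOT1 (0.37), PCK2 (0.29), GLUD2 (0.31), GOT2 (0.15) and PC (0.49) did not pass (limma adjusted p = 0.109, 0.402, 0.483, 0.453 and 0.183). IDH2 (-0.69), SDHB (0.28) and SDHC (-0.37) did not pass there either (limma adjusted p = 0.0541, 0.261 and 0.0709), and OGDHL, IDH3G, SDHA, SDHAF1, LIPT2 and LIAS passed in the same direction as in mock-treated cells. IDH1 passed with FK866 in both lines (0.79, limma adjusted p = 0.00637) but not between the mock-treated lines (0.29, limma adjusted p = 0.169). The lipoate genes LIPT2 and LIAS, which attach or make the cofactor of both dehydrogenase complexes, rose by 0.83 and 0.70 (limma adjusted p = 0.000578 and 0.0181). In the responses to FK866 limma called 0 of the 51 genes in either line, and 0 for the difference between responses. PDK3 in CEM PA came nearest, averaging 10.68 ± 0.09 (SD, n = 3) without and 9.81 ± 0.04 (SD, n = 2) with the drug, which is -0.87 (SE 0.22, limma adjusted p = 0.0721). With replicate number as a block PDK3 (-0.82, limma adjusted p = 0.0234) and SDHD (0.56, limma adjusted p = 0.0444) passed in CEM PA. SDHD did not pass otherwise (0.50, limma adjusted p = 0.227), and pairing by replicate number was not shown for CEM PA. PDK3 also passed without CEM RES mock replicate 2 (limma adjusted p = 0.0470).

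The likeness of patterns over the 13 arrays is given as a description, since the arrays share the difference between the lines. The Pearson correlation of the 36 pairs of members, each by its brightest probe, ran from -0.877 (CS and PC) to 0.896 (FH and MDH2). After the group means were subtracted it ran from -0.717 to 0.663, and the pair PDHA1 and IDH3A went from 0.728 to -0.647. The gene most like each member was ZSCAN29 for PDHA1 (0.964), VWA1 for PC (0.946), CBX1 for CS (0.963), RAP1GDS1 for IDH3A (0.983), SPDYE2 for OGDH (0.927), CYP3A4 for SUCLG1 (0.965), EXTL2 for SUCLA2 (0.966), SLC11A2 for FH (0.963) and SNRPC for MDH2 (0.991). Each was the highest of all kept probes that bear a current gene symbol.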

How the data were processed

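The authors deposited, for each of 13 arrays, the spot intensity and 0/1 quality flags (other values) written by Agilent Feature Extraction 10.7.7.1 (per the submitters' processing notes), with background removed but no normalization across arrays. A series table that the authors deposited holds quantile-normalized log2 values and served as an alternative. Intensities were put on the log2 scale, spots with an outlier flag were set to missing (1 member spot, of SUCLA2 on CEM RES mock replicate 1), control spots were removed, arrays were quantile normalized and the spots of a probe averaged. A probe was kept if some group had it well above background on all its arrays. Such processing forces equal signal distributions on both lines, so differences are relative to the other probes.

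The 4 groups were fitted in one model (9 residual degrees of freedom) with limma 3.58.1 in R 4.3.3, two-sided, Benjamini-Hochberg adjusted over 22754 probes. Tables and figures used Python 3.11.15, pandas 2.3.3 and matplotlib 3.10.9. The procedure was tested on simulated data with independent noise, as a check of the code only. Probe positions are on hg19, as the array design in the deposited headers gives them. Arrays give no counts, so their number limits the precision, and replicates of a group correlated across probes at 0.977 to 0.991.

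Alternatives were 75th percentile scaling, normexp (offset 50), no dim filter or signal on all 13 arrays, outlier spots kept, 1 probe or the mean of probes per gene, the deposited log2 values, only the groups compared, slide, scan session or replicate number as a block, array weights, an intensity trend, and each array left out in turn. Replicate numbers were taken to pair arrays, which rests on CEM RES. There the deviations of same-numbered mock and FK866 arrays from their group means correlated across probes at 0.199, 0.388, 0.473 and 0.289. Arrays with different numbers gave -0.302 to 0.078. Deviations from a group mean cancel out within the group, so these values are not independent of the same-numbered ones. For CEM PA the same-numbered arrays gave 0.460 and 0.354, but the deviations of its 2 FK866 arrays are mirror images, so these values cannot test pairing. Mock replicate 3, which has no partner, gave 0.259 with FK866 replicate 2. Same-numbered CEM PA arrays also shared a scan session, so pairing was not shown for this line. The members, the gene lists and the tests were chosen with earlier results of these data known. Pathway genes were named by value if called in a treatment comparison or among the 3 largest called rises or falls of their list between the mock-treated lines. PDK3 and SDHD in the response to FK866, IDH1, PCK2, GLUD2, GOT2, LDHA, LDHB, MPC1 and MPC2 were named after their values were seen. MDA MB231 cells and the study's other assays were not analysed here. Only 3 of the member probes are shown by sequence, and some marker genes are not reported here.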

Additional observations from a re-analysis of the deposited data

Results flagged for a closer look

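CEM RES FK866 replicate 3 stood apart from the other 3 arrays of its group for CS, at 14.60 against 14.85 to 14.87, the gap to the nearest array being 0.898 of the whole range. This was 1 of 20 groups of 4 arrays examined over the 10 probes, and chance alone gives about 1 in 20. Without this array CS was -0.41 in CEM RES FK866 against CEM PA FK866 (limma adjusted p = 0.102). No member differed between the lines in its response to FK866 at an adjusted p of 0.05.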

How the results depend on the processing

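Between the mock-treated lines, where 8 of the 10 probes passed an adjusted p of 0.05 in limma, 5 passed without the filter on dim probes, 3 when only the groups compared were fitted and 5 with scan session as a block. That block cannot take session out of a comparison of the lines, because no session held both lines. When 1 array was left out, the count ran from 2 to 8, and for CEM RES FK866 against CEM PA FK866 from 2 to 6. Of the 28 and 16 pathway genes called in these comparisons, 18 to 29 and 8 to 18 were called when 1 array was left out. No called member changed sign. For FK866 against mock in CEM PA, 1 pathway gene passed with normexp background correction, 2 with replicate number as a block, 1 with array quality weights and 0 to 1 with 1 array left out. The replicate block changed no member call other than those of PC, CS and OGDH, where PC between the mock-treated lines was 0.72 (limma adjusted p = 0.0640). The counts of 0 called members for the responses to FK866 held in all alternatives, while signs of these small changes turned in 20 of 268 refits for CEM PA and 18 of 268 for CEM RES. The cause of these shifts was not tested. Over all probes, FK866 in CEM PA gave 347 calls, from 3 when only the groups compared were fitted to 1257 with array quality weights, and the share of higher calls was 72.6%, or 62.4% with 75th percentile scaling. For the difference between responses the 94 calls ranged from 7 to 486, with 6.38% higher, or 18.1% with that scaling. A comparison with only the groups compared does not exist for the difference between responses, which uses all 4. The number of arrays, most of all the 2 of CEM PA FK866, limits what these data can show: intervals of the response in CEM PA reach 1.28 on the log2 scale.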
